A study of Mus musculus with 6 samples.

Results

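The cytotoxic granule genes described here are the 5 granzyme genes Gzma, Gzmb, Gzmc, Gzmk and Gzmm, the perforin gene Prf1, and Nkg7, Srgn, Crtam and Ctsw. They were taken by gene symbol from the array annotation, and all 10 were found, among 22180 genes with a symbol of their own. Each had 1 probe set (a group of probes summarised to a single value) with no other symbol. A further probe set carries both the symbol Prf1 and the symbol COX2 and was left out of the comparison because its signal cannot be assigned to 1 gene.

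RNA levels were read on Affymetrix Mouse Gene 2.0 ST arrays in CD4+ T cells purified from the spleens of wild-type C57BL/6 females about 8 weeks old. All cells were first activated for 24 h by antibodies against CD3, a part of the T cell receptor, and the costimulatory molecule CD28. They were then kept for a further 24 h with 100 µM icilin, a synthetic agonist of the cold-sensing channel TRPM8 and of TRPA1 (3 arrays), or with its solvent DMSO, called vehicle here (3 arrays). Cells of both groups came from the same 3 mice, and both were activated in the same way, so no resting cells enter the comparison.

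Cytotoxic lymphocytes kill by releasing granules onto a target cell. Perforin opens the target membrane, and granzymes, a family of serine proteases, pass through and cleave proteins inside the target. Granules are best known from CD8+ T cells and natural killer cells, and activated CD4+ T cells can express part of the same set, with granzyme B the granzyme most readily induced by activation.

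Most of these genes were lower with icilin. Levels are log2 values made by the authors with the RMA method, and a gene is called changed, or said to have risen or fallen, at an adjusted p under 0.1 by limma (two-sided, Benjamini-Hochberg over all 22180 genes) together with a change of at least 1.5-fold, which are the limits of the study. By that rule 7 of the 10 genes fell (Gzma, Gzmb, Gzmc, Prf1, Nkg7, Crtam and Ctsw), none rose, and Gzmk, Gzmm and Srgn were not called. Among all genes 1.03% were called lower in icilin and 0.37% higher, 1.4% in all. The median log2 fold change (icilin minus vehicle, as throughout) was -0.69 over the 10 genes and 0.01 over all genes. The 10 genes were chosen with earlier results of these data known, so these figures describe them and do not test them as a set. Every icilin array was below every vehicle array in 7 of the 10 genes, the same 7 that were called. Among all genes 10.5% showed this separation, and 13.6% had every icilin array above. The calls rest on the same values, so the separation is not further evidence. In bulk RNA of this kind, fewer cells that express a gene and less of its RNA per cell cannot be told apart.

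Promoter sequences of the called granzyme and perforin genes are shown because these 4 genes fell together. Each sequence runs from 250 bases before to 50 bases after a transcription start, 5′ to 3′ in the direction of the gene, from RefSeq annotation of GRCm38.p6. Capitals mark matches to the motifs searched, which are named after the sequences.
Gzma, chr13:113100932-113101231, minus strand: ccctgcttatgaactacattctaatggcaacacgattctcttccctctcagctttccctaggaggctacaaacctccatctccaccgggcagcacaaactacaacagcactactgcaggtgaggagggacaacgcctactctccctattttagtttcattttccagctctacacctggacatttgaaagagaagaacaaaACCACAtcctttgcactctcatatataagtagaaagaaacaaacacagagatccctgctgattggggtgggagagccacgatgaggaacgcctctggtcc
Gzmb, chr14:56262285-56262584, minus strand: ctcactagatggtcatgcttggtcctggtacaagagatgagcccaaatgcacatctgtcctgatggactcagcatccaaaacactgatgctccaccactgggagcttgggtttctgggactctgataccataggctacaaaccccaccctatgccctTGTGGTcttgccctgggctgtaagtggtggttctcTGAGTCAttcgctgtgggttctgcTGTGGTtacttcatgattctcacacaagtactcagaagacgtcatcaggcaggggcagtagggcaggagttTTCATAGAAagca
Gzmc, chr14:56234608-56234907, minus strand: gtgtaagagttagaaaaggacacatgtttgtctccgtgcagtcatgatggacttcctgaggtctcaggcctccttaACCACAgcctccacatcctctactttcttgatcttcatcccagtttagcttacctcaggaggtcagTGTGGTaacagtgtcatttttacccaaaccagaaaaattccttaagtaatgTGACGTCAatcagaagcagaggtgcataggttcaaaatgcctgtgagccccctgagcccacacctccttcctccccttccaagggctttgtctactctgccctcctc
Prf1, chr10:61297586-61297885, plus strand: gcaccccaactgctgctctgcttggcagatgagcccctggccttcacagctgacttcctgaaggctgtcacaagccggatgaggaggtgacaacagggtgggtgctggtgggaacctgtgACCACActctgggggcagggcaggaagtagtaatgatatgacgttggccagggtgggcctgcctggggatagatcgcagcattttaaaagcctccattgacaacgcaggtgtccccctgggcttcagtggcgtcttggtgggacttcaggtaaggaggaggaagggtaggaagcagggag

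Motifs were searched on both strands as the T-box core GGTGTGA, the RUNX core TGTGGT, which reads ACCACA on the other strand, the AP-1 site TGANTCA, the STAT site TTCNNNGAA, the E-box CACGTG and the cAMP response element TGACGTCA. A RUNX core was present in the windows of all 5 called genes that had a sequence (Gzma, Gzmb, Gzmc, Prf1 and Nkg7), where 16.8% of 32851 promoter windows of the same length hold one. It lies 50 bases before the start in Gzma and 130 before it in Prf1. Gzmb has a pair of them, 93 and 34 bases before the start, and so has Gzmc, 174 and 108 bases before it. In Nkg7 it lies 83 bases before the start. The motif was not limited to the called genes. Of the 3 genes that were not called, Gzmm and Srgn hold a RUNX core in 1 of their 2 windows each, and Gzmk has none in its single window. An AP-1 site was found in Gzmb (7.81% of all windows), a cAMP response element in Gzmc (1.79%) and a STAT site in Gzmb, Nkg7 and Gzmm (8.30%). The T-box core was found in Nkg7, Gzmk and Gzmm (3.98%), and the E-box in Gzmm (7.15%). No motif overlapped another in these windows, and a match of letters is a description and not a binding site. Crtam and Ctsw had no sequence in the table used.

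Granzyme A is a protease that cuts after basic residues. Gzma had log2 levels of 3.90, 3.67 and 3.85 in icilin arrays, against 5.32, 5.25 and 5.23 in vehicle arrays. Its groups lay furthest apart of the 10 genes, with a gap of 1.33 between the highest icilin and the lowest vehicle array. Gzma fell by 1.46 ± 0.08 on the log2 scale (SE; limma adjusted p = 0.000671), which is 2.75-fold, and its log2 fold change ranked 16 from the lowest among 22180 genes. Its probe set was of middling brightness, at percentile 49.5 of all genes. In icilin arrays Gzma stood below the array medians of 4.24 to 4.30. Whether its levels there exceed background could not be read. Expression of Cdc20b, a gene that overlaps Gzma in the annotation, differed by 0.10 ± 0.09 (adjusted p = 0.639).

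**Figure D1:**
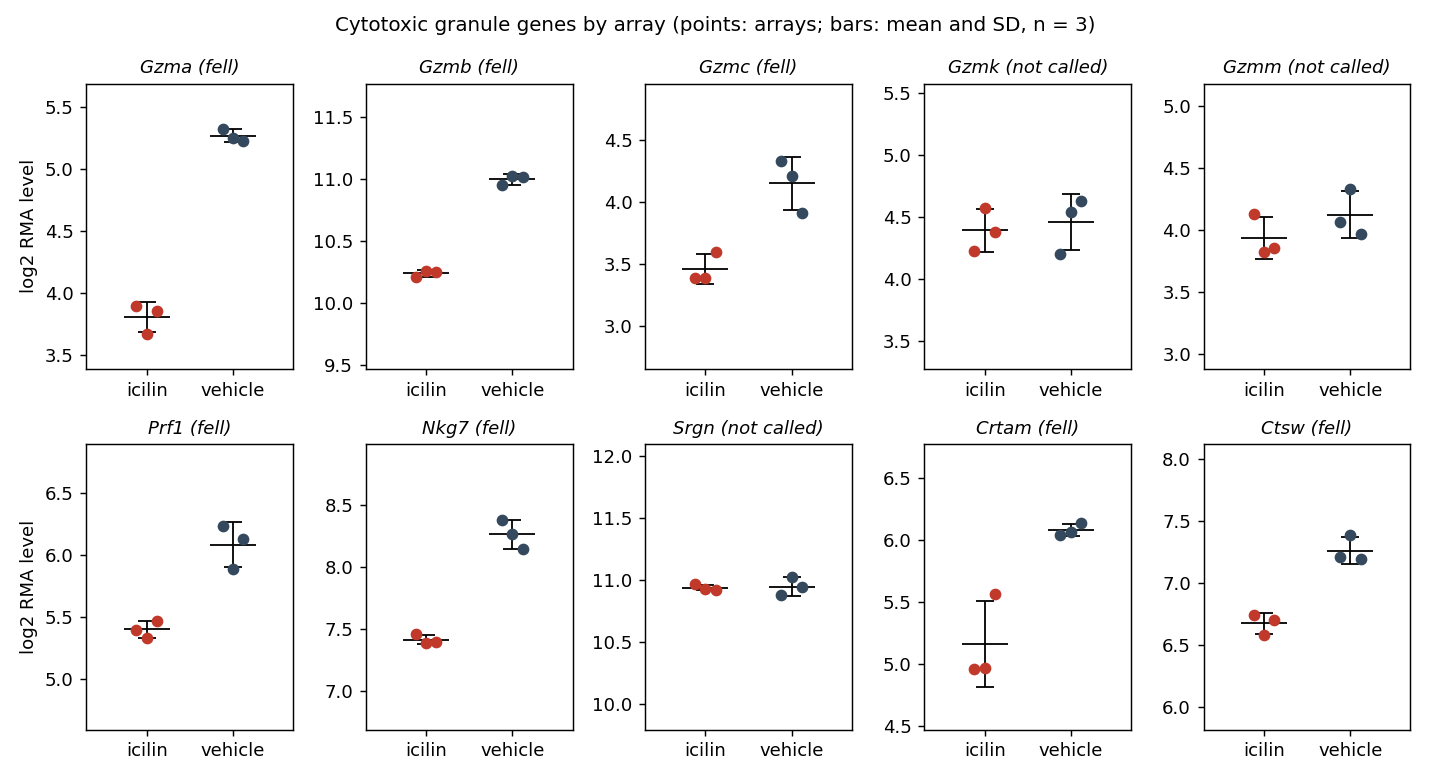
Log2 RMA level of each of the 10 genes (y axis, each panel spanning the same range around its own middle) in the 3 icilin and 3 vehicle arrays; points are arrays and bars the mean and SD. The 3 icilin arrays lie below the 3 vehicle arrays in the 7 genes that fell, with gaps of 0.32 (Gzmc) to 1.33 (Gzma), and the groups overlap in Gzmk, Gzmm and Srgn.

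Granzyme B cuts after aspartate and activates caspases in the target cell. Gzmb had log2 levels of 10.21, 10.26 and 10.24 in icilin arrays, against 10.95, 11.02 and 11.02 in vehicle arrays. Arrays within a group differed little here, with an SD of 0.03 in icilin and 0.04 in vehicle arrays (n = 3 each). Gzmb fell by 0.76 ± 0.06 (SE; limma adjusted p = 0.00175), or 1.69-fold, and stayed among the brightest probe sets with icilin (percentile 98.8 over all arrays).

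Granzyme C is a mouse granzyme encoded in the same gene cluster as granzyme B. Gzmc had log2 levels of 3.38, 3.39 and 3.59 in icilin arrays, against 4.33, 4.20 and 3.91 in vehicle arrays. The groups were separate, by a gap of 0.32, and the probe set was dim (percentile 36.5). All icilin arrays were below the array medians of 4.24 to 4.30, and whether such levels exceed background could not be read. Gzmc fell by 0.69 ± 0.12 (SE; limma adjusted p = 0.0299). Leaving out icilin array 1 or 2 or vehicle array 2 ended this call, with log2 fold changes of -0.67 to -0.66 and adjusted p of 0.111 to 0.115.

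Granzyme K and granzyme M did not pass the test. Gzmk, which encodes another granzyme that cuts after basic residues, had log2 levels of 4.23, 4.58 and 4.38 in icilin arrays, against 4.21, 4.55 and 4.63 in vehicle arrays. Gzmm, whose product cuts after methionine or leucine, had 4.13, 3.83 and 3.86 in icilin arrays, against 4.07, 4.34 and 3.98 in vehicle arrays. In both genes the groups overlapped. Their probe sets stood at percentiles 47.9 (Gzmk) and 41.1 (Gzmm) of all genes, near the array medians of 4.24 to 4.30. Whether such levels exceed background could not be read. The difference was -0.07 for Gzmk (95% interval -0.39 to 0.26, limma adjusted p = 0.854) and -0.19 for Gzmm (-0.48 to 0.10, adjusted p = 0.506). The sign for Gzmk turned without icilin replicate 1 or vehicle replicate 3 (0.02 in both).

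Within the granzyme family the measured log2 fold changes differed. The Gzmk probe set lay near the array medians, so its small change cannot be read as a gene that did not respond. Of 4 pairs of genes whose difference in response was tested, with the pairs chosen when earlier results of these data were known, Gzma and Gzmk lie on the same chromosome (13) with a single annotated noncoding gene between them. The log2 difference Gzma minus Gzmk was -0.33, -0.91 and -0.53 in icilin arrays, against 1.12, 0.70 and 0.59 in vehicle arrays. Its zero has no meaning, since levels of different probe sets cannot be set against each other, and only the change between groups can be read. The log2 fold change of Gzma differed from that of Gzmk by -1.40 (95% interval of the difference -1.85 to -0.94, limma p = 0.000161, adjusted p = 0.000645 over the 4 pairs, exact two-sided permutation p = 0.1). For 3 against 3 arrays 0.1 is the smallest p that permutation can give. The measured fall of Gzma was also larger than that of Gzmb, with a difference of -0.70 (-0.96 to -0.44, limma p = 0.000346, adjusted p = 0.000691, exact permutation p = 0.1). These 2 probe sets differ widely in brightness (percentiles 49.5 and 98.8). Whether the RNA of the 2 genes changed by different amounts was not tested apart from the probe sets.

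The other pairs did not differ beyond their error. Gzmb minus Gzmc, neighbours on chromosome 14, differed in response by -0.06 (95% interval -0.40 to 0.27, limma p = 0.666, adjusted p = 0.666, exact permutation p = 0.9). Gzmb minus Prf1 differed by -0.08 (-0.38 to 0.22, limma p = 0.564, adjusted p = 0.666, exact permutation p = 0.7). The sign of both differences turned with single arrays left out.

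Perforin forms the pore through which granzymes enter. Prf1 had log2 levels of 5.40, 5.33 and 5.47 in icilin arrays, against 6.24, 5.89 and 6.13 in vehicle arrays. The groups were separate, and vehicle arrays were spread wider (SD 0.18) than icilin arrays (SD 0.07, n = 3 each). Prf1 fell by 0.68 ± 0.10 (SE; limma adjusted p = 0.0174), or 1.60-fold, and its call held with each array left out in turn (-0.78 to -0.60). The probe set shared by the symbols COX2 and Prf1 stood at 12.04, 12.02 and 12.02 in icilin arrays, against 12.01, 12.11 and 12.04 in vehicle arrays, a difference of -0.02 that cannot be given to either gene. The neighbouring gene Adamts14 differed by -0.02 (adjusted p = 0.948).

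Nkg7 encodes a membrane protein of cytotoxic granules that takes part in their release. It had log2 levels of 7.46, 7.39 and 7.39 in icilin arrays, against 8.38, 8.27 and 8.15 in vehicle arrays. The icilin arrays lay close together and all below the vehicle arrays. Nkg7 fell by 0.85 ± 0.08 (SE; limma adjusted p = 0.00277), or 1.80-fold. Its measured neighbours Lim2 (-0.07, adjusted p = 0.878) and Cldnd2 (-0.16, adjusted p = 0.717) were not called.

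Srgn encodes serglycin, the proteoglycan core that holds granzymes and perforin inside the granule and that many other blood cells make too. It had log2 levels of 10.97, 10.93 and 10.92 in icilin arrays, against 10.88, 11.03 and 10.94 in vehicle arrays. The groups overlapped, and the difference was -0.01 (95% interval -0.16 to 0.15, limma adjusted p = 0.965), an interval that leaves out a 1.5-fold change in either direction. Its sign turned when arrays were centred on their median (0.02), with quantile normalization (0.03) and without icilin replicate 3 or vehicle replicate 2 (0.00 and 0.03).

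Crtam encodes an adhesion receptor that activated cytotoxic cells and a minority of activated CD4+ T cells display. It had log2 levels of 4.96, 4.97 and 5.56 in icilin arrays, against 6.04, 6.06 and 6.14 in vehicle arrays. Icilin replicate 3 stood apart from the other 2 icilin arrays and was still below all vehicle arrays. Crtam fell by 0.92 ± 0.16 (SE; limma adjusted p = 0.0311). Without icilin replicate 3 the log2 fold change was -1.12. The call was lost with icilin array 1 or 2, or vehicle array 2 or 3, left out (-0.93 to -0.82, adjusted p of 0.107 to 0.116).

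Ctsw encodes cathepsin W, a cysteine protease found mainly in cytotoxic lymphocytes. It had log2 levels of 6.74, 6.59 and 6.70 in icilin arrays, against 7.21, 7.39 and 7.19 in vehicle arrays. The groups were separate, by a gap of 0.45. Ctsw fell by 0.59 ± 0.08 (SE; limma adjusted p = 0.0136), a fold of 1.503 that is just past the limit of 1.5. Without icilin replicate 2 or vehicle replicate 2, or with arrays centred on their median, the fold was below the limit (-0.54, -0.53 and -0.56) while the adjusted p stayed under 0.1 (0.0591, 0.0526 and 0.0178). Fibp, a gene that overlaps Ctsw in the annotation, differed by 0.03 (adjusted p = 0.862).

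**Figure D2:**
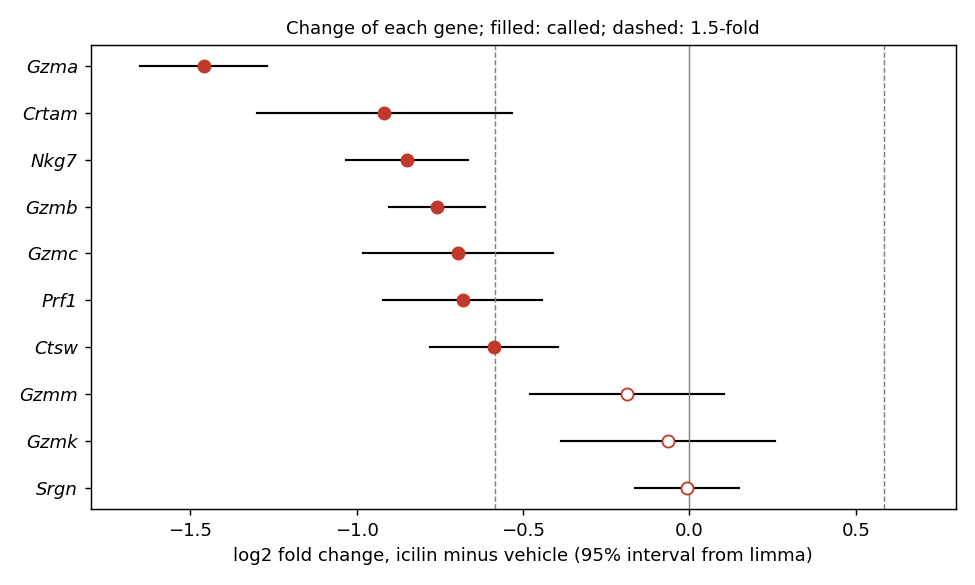
Log2 fold change, icilin minus vehicle, of each of the 10 genes (x axis) with its 95% interval from limma; filled points were called and dashed lines mark 1.5-fold. Gzma stands apart at -1.46, the 6 other called genes lie between -0.92 and -0.59, and the intervals of Gzmk, Gzmm and Srgn include 0.

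The genes beside or overlapping these 10 in the annotation were not called. Of 13 that were measured, the log2 fold changes lay between -0.37 (Jhy, beside Crtam, adjusted p = 0.270) and 0.18 (Gzmf, beside Gzmc, adjusted p = 0.776), and 2 of them (Jhy, and Ubash3b at -0.16) had an unadjusted p under 0.05. Among all genes 17.1% had such a p, 8.05% lower in icilin and 9.09% higher, so 2 of 13 is near that share. Gzmf had log2 levels of only 2.00 to 3.09 over all arrays, and whether such levels exceed background could not be read.

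The count of 7 called genes moved with single arrays. It was 4 without icilin replicate 2 and 4 without vehicle replicate 2, and in both cases the 4 were Gzma, Gzmb, Prf1 and Nkg7. These 4 genes were called under all alternative settings in which they were tested, and the other 3 were each lost in some.

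**Figure D3:**
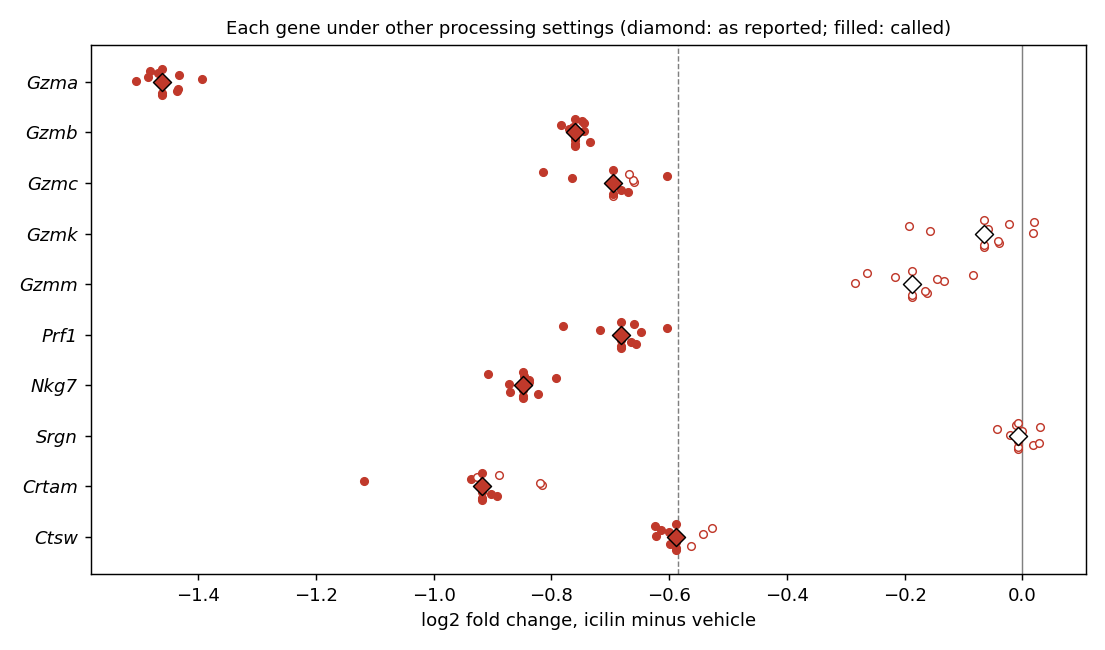
Log2 fold change, icilin minus vehicle, of each gene (x axis) as reported (diamond) and under other processing settings or with an array left out (circles); filled symbols were called. Gzma, Gzmb, Prf1 and Nkg7 stay filled, while Gzmc, Crtam and Ctsw each have open circles and Gzmk and Srgn lie on both sides of 0.

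Genes that work with the granule proteins were measured as well, on lists chosen when earlier results of these data were known. The 4 other granzyme genes measured (Gzmd, Gzmf, Gzmg and Gzmn, mouse genes of the granzyme B and C cluster) had log2 levels of 1.32 to 3.21 over all arrays, and neither limma nor SAM, the study's own test, called any. At an unadjusted p under 0.05 there was 1 higher and 0 lower, against 9.09% and 8.05% of all genes: Gzmn had 2.79, 3.21 and 2.88 in icilin arrays, against 2.82, 2.31 and 2.50 in vehicle arrays (0.42, adjusted p = 0.240). Y-linked genes, which female cells lack, stood at 1.82 to 2.48 on the same arrays.

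Granzymes are cut to their active form by cathepsin C, and serpins protect the killer cell from its own granzymes. Of 9 genes measured on a list of granzyme activation and inhibition, limma and SAM called none. The list also holds genes of other kinds, such as Calr, and its median log2 fold change was -0.01. At an unadjusted p under 0.05 there was 1 higher, the cathepsin C gene Ctsc (0.17, adjusted p = 0.209, named after its value was seen), and 1 lower, the serpin gene Serpinb6b. Among all genes 9.09% were higher and 8.05% lower at that limit, so 1 of 9 each way is near those shares. Serpinb6b had 8.93, 8.95 and 8.95 in icilin arrays, against 9.46, 9.47 and 9.46 in vehicle arrays, with no overlap, and its difference of -0.52 ± 0.06 (adjusted p = 0.00511) was short of 1.5-fold. Serpinb9, whose product blocks granzyme B, differed by -0.09 (95% interval -0.24 to 0.05, adjusted p = 0.513), also named after its value was seen.

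Of 20 genes for granule formation and release, 1 fell and 19 were not called, with a median of 0.05. Among all genes 1.03% fell and 0.37% rose. The one that fell was Stx11, a syntaxin of granule fusion, at 7.38, 7.42 and 7.49 in icilin arrays, against 7.98, 8.00 and 8.09 in vehicle arrays (-0.59 ± 0.07, adjusted p = 0.00567). Its fold went below the limit with arrays centred on their median (-0.57) and without icilin replicate 1 (-0.57) or vehicle replicate 3 (-0.56). Sytl2, a synaptotagmin-like partner of RAB27A named after its value was seen, was higher in all icilin arrays (0.49 ± 0.08, adjusted p = 0.0229) and short of 1.5-fold. At an unadjusted p under 0.05, 4 of the 20 were higher and 3 lower, against 9.09% and 8.05% of all genes. Besides Sytl2, the higher ones were the release factor gene Unc13d (0.23, adjusted p = 0.136), Rab27a (0.18, adjusted p = 0.197) and Sytl1 (0.36, adjusted p = 0.131). Besides Stx11, the lower ones were Sytl3 (-0.40, adjusted p = 0.175) and Stxbp2 (-0.22, adjusted p = 0.144). These were also named after their values were seen.

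Of 18 genes for death ligands and other contact killing, Ltb fell and 17 were not called, with a median of -0.07. The share that fell among all genes was 1.03%. Ltb, a lymphotoxin gene, had 9.99, 9.91 and 9.94 in icilin arrays, against 10.55, 10.58 and 10.54 in vehicle arrays (-0.61 ± 0.06, adjusted p = 0.00364). With arrays centred on their median it stood at -0.58, below the fold limit. Without the fold limit, 3 of the 18 were lower and 0 higher at an adjusted p under 0.1, against 3% and 2.27% of all genes. Besides Ltb these were Slamf7, a receptor of the SLAM family (-0.52, adjusted p = 0.00694), and the lymphotoxin alpha gene Lta (-0.48, adjusted p = 0.0148), each lower in all icilin arrays. At an unadjusted p under 0.05, 7 were lower and 2 higher, against 8.05% and 9.09% of all genes. Besides Ltb, Slamf7 and Lta, the lower ones were the death ligand gene Fasl (-0.26, adjusted p = 0.133), Ifng (-0.33, adjusted p = 0.179), Tnf (-0.17, adjusted p = 0.234) and Cd40lg (-0.28, adjusted p = 0.154). The higher ones were Fas (0.27, adjusted p = 0.147) and Cd226 (0.20, adjusted p = 0.212). The chemokine gene Ccl5, whose product is stored in granules of some cytotoxic cells, was not among these (0.20, adjusted p = 0.304). All but Ltb were named after their values were seen.

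Regulators of the cytotoxic programme moved in both directions, with more of them lower than higher in icilin. Of 21 measured, Runx3 and Bhlhe40 fell, Eomes rose and 18 were not called, with a median of -0.18. Of all genes 1.03% fell and 0.37% rose. At an unadjusted limma p under 0.05, 10 of the 21 were lower and 3 higher, against 8.05% and 9.09% of all genes. Every icilin array was below every vehicle array in 12 of them and above in 3. Those separations were seen in 10.5% and 13.6% of all genes. Runx3, which encodes a RUNX factor, had 7.29, 7.46 and 7.37 in icilin arrays, against 8.12, 8.24 and 8.19 in vehicle arrays (-0.81 ± 0.07, adjusted p = 0.00277). Eomes encodes a T-box factor that activates granule genes in CD8+ T cells. It had 4.97, 4.96 and 4.91 in icilin arrays, against 4.18, 4.30 and 4.35 in vehicle arrays (0.67 ± 0.07, adjusted p = 0.00424). The groups of Runx3 and Eomes were separate, in opposite directions. Runx1, another RUNX gene on the list named after its value was seen, was not called (-0.18, adjusted p = 0.293). The RUNX core marked in the promoters does not tell these factors apart. Whether either has a part in the fall of the granule genes was not tested.

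Bhlhe40, an E-box binding factor, had 10.47, 10.52 and 10.50 in icilin arrays, against 11.05, 11.07 and 11.17 in vehicle arrays (-0.60 ± 0.06, adjusted p = 0.00484). Its fold went below the limit with arrays centred on their median (-0.58) and without vehicle replicate 3 (-0.56). Without the fold limit, 6 of the 21 regulators were lower and 2 higher at an adjusted p under 0.1, against 3% and 2.27% of all genes. Besides Runx3, Bhlhe40 and Eomes these were Batf (-0.49), Stat5a (-0.50), Stat5b (-0.35) and Stat4 (-0.30), and higher in icilin Tbx21 (0.47), the T-box factor of Th1 cells, all named after their values were seen.

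**Figure D4:**
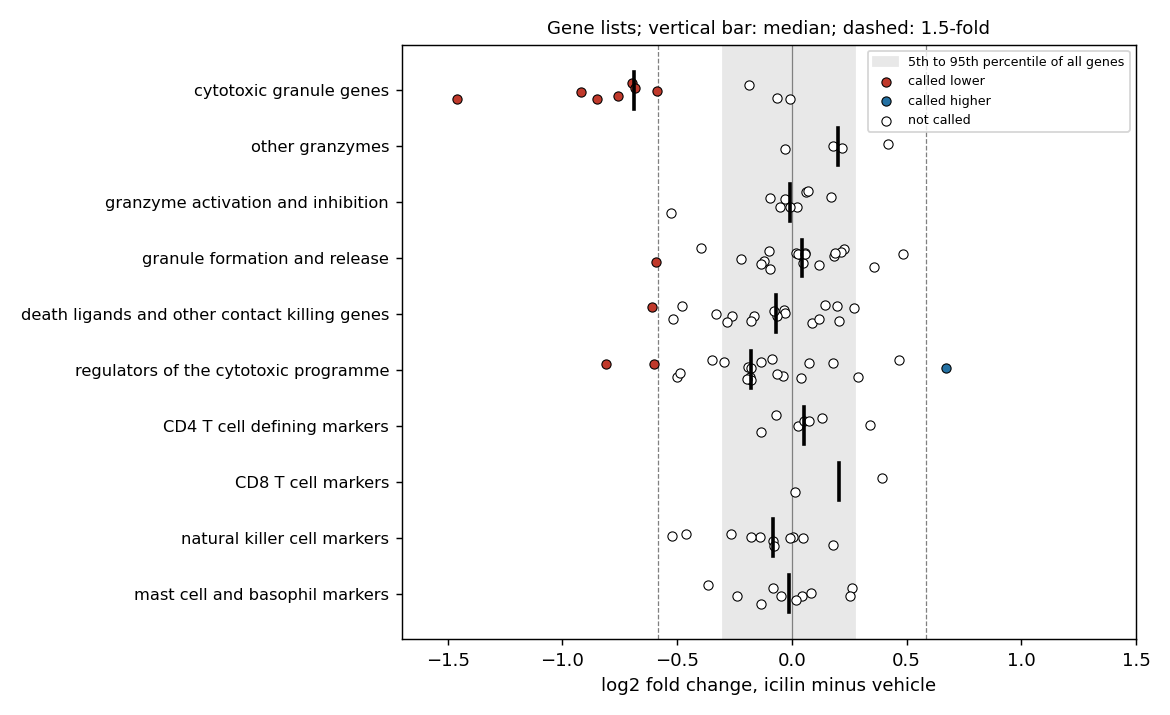
Log2 fold change, icilin minus vehicle (x axis), of each measured gene on the cytotoxic granule list, on 5 lists of related genes and on 4 marker lists; vertical bars are list medians, filled points were called, and the grey band spans the 5th to 95th percentile of all genes (-0.30 to 0.28). The granule genes have a median of -0.69, and the medians of the other lists lie between -0.18 and 0.20.

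Markers of the cells that carry such granules were read on the same arrays. Neither limma nor SAM called any of the 7 measured CD4 T cell genes. By unadjusted p (under 0.05), 1 was higher and 0 were lower, against 9.09% and 8.05% of all genes. Cd4 stood at 11.02, 11.07 and 11.09 in icilin arrays, against 11.01, 11.07 and 11.03 in vehicle arrays. The smallest p was that of Cd28 (0.34, adjusted p = 0.0529). Neither CD8 gene was called, with Cd8a at 0.01 (adjusted p = 0.974) and Cd8b1 at 0.39, higher in all icilin arrays (adjusted p = 0.167).

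Of 11 natural killer cell markers limma and SAM called none. By unadjusted p (under 0.05), 3 were lower and 0 were higher, where 8.05% and 9.09% of all genes were. Of the 11, 4 lay lower in all icilin arrays, as 10.5% of all genes did: Klrd1 (-0.27, adjusted p = 0.0843), Klrc1 (-0.46, adjusted p = 0.107), Klrb1c (-0.52, adjusted p = 0.135) and Klrk1 (-0.14, adjusted p = 0.353). None lay higher in all of them, and the list median was -0.08. On a linear scale the summed level of the 11 was 159 to 163 in icilin arrays and 171 to 187 in vehicle arrays, without overlap. Ncr1, a defining marker of natural killer cells, stood at 3.14 to 3.36 in icilin arrays and 3.29 to 3.43 in vehicle arrays. RMA values do not reach 0, so absence could not be read. Whether these few lower markers have a part in the fall of the granule genes was not tested.

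Of 10 mast cell and basophil markers, which include granule proteases, limma and SAM called none (median -0.01). By unadjusted p (under 0.05), 1 was higher and 2 were lower, where 17.1% of all genes passed in either direction. The smallest p was that of Gata2 (-0.24, adjusted p = 0.152). The summed level was 113 to 130 in icilin arrays and 118 to 122 in vehicle arrays. The 3 measured markers of gamma delta T cells were not called by limma or SAM either, 0 of them at an unadjusted p under 0.05, with the smallest p for Sox13 (0.21, adjusted p = 0.460).

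By Euclidean distance between mean-centred log2 profiles over the 6 arrays, the genes most like Gzma were Stra6 (0.18), Plod2 (0.22) and Cysltr1 (0.22). Those most like Gzmb were Slc1a2 (0.08), Ppme1 (0.09) and Ctla4 (0.11), and those most like Prf1 were Tnfsf14 (0.14), 2700097O09Rik (0.16) and Slc16a3 (0.21). With 6 arrays in 2 groups this measure mostly matches the size of the change: the 3 genes like Gzma had log2 fold changes of -1.47 to -1.37, the 3 like Gzmb of -0.77 to -0.69 and the 3 like Prf1 of -0.65 to -0.61.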

How the data were processed

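RNA from 6 samples was hybridised to Affymetrix Mouse Gene 2.0 ST arrays, 3 with icilin and 3 with vehicle. The authors deposited log2 values made with RMA, which corrects background, normalizes between arrays and summarises probes, per the series design text. Because RMA gives all arrays about the same distribution, a shift of the whole transcriptome cannot be seen. Nothing upstream was redone, and arrays carry no read depth: their number limits the precision.

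Of 41345 probe sets, 23521 have 1 gene symbol, 1814 several and 16010 none. The brightest probe set per gene was kept, leaving 22180 genes, which were fitted with limma 3.58.1 in R 4.3.3 (lmFit, eBayes, no covariate). SAM, the study's test, was written anew as an alternative with 20 permutations. Both were tested on simulated data. For differences between 2 genes, the within-array difference divided by the square root of 2 was fitted with all genes, and an exact permutation test was run.

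Alternative settings were a replicate block, other variance settings, centring, quantile normalization, leaving out dim genes, other uses of probe sets, each array left out, SAM and other thresholds. The genes described, the lists and the rule for named genes were chosen with earlier results of these data known. The rule named all 10 genes, the called genes of each list (up to 4 by size, or the gene with the smallest p where none was called), measured neighbours in the annotation, and the 3 genes closest in profile to Gzma, Gzmb and Prf1. The lists hold 12 sets of genes, of which 5 are related to granules. Promoter sequences and neighbouring genes came from RefSeq tables of GRCm38.p6, and the genome build of the array annotation is not given in the sources used here. Protein sequences were not used here. Sequence searches and plots used Python 3.11.15, pandas 2.3.3 and matplotlib 3.10.9.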

Additional observations from a re-analysis of the deposited data

How the results depend on the processing

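Direction and call of Gzma, Gzmb, Prf1, Nkg7, Runx3 and Eomes held under every alternative in which each was tested (16 at most; Gzma falls just below the median brightness and was not tested when dim genes were left out). The count of granule genes called lower was 7 as reported and 4 to 7 with single arrays left out, with all genes called at 279 to 328 and genes called lower at 207 to 241. Gzmc was lost under the replicate block (adjusted p = 0.115), which left 6 granule genes called and 283 genes in all. Crtam was lost when every probe set was fitted (adjusted p = 0.102). Without a fold limit, 1170 genes passed an adjusted p of 0.1 (666 lower) and 734 one of 0.05 (466 lower), and the granule genes called lower stayed at 7. Arrays centred on their median left 0 calls among genes of granule formation and release and 0 among death ligands, and moved the median of all genes from 0.01 to 0.04. With centring Srgn stood at 0.017 and with quantile normalization at 0.028. With single arrays left out, the difference in response ranged from -1.52 to -1.24 for Gzma minus Gzmk, -0.76 to -0.62 for Gzma minus Gzmb, -0.18 to 0.065 for Gzmb minus Gzmc and -0.18 to 0.035 for Gzmb minus Prf1. Gzmk ranged from -0.19 to 0.019 and Srgn from -0.044 to 0.030. The cause of these changes was not tested, except that leaving out an array or adding probe sets changes the number of arrays or tests. The labels do not say that a replicate number marks a mouse, so arrays of the same mouse could not be matched. Same-numbered arrays of the 2 groups did not deviate together (r of -0.02 to -0.01 across genes, and 0 of 6 arrays correlated best with its own number), and the comparison as reported was not paired. Under the replicate block the difference Gzma minus Gzmk kept its value of -1.40 (adjusted p = 0.000442). Separate mice were named in the design text, yet p-values from 3 arrays a group measure only the spread between these arrays.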
